A study of Mus musculus with 12 samples.

Results

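The superoxide dismutases and the copper chaperone that loads the copper/zinc enzyme were followed in spinal cord RNA as 5 genes, picked by their symbols from the 45906 genes counted. They are mouse Sod1, Sod2, Sod3 and Ccs, and human SOD1, which is present only as a transgene. All 5 members had enough counts to enter the tests, as had 20155 genes in all. Total spinal cord RNA of 12 mice, aged 7 months and kept on a C57BL/6 background, was sequenced as stranded poly-A libraries, with 3 mice per genotype. The genotypes were Plekhg5+/+, which carried neither change, Plekhg5-/-, which lacked the Rab26 activator Plekhg5, Plekhg5+/+ SOD1-G93A, which carried human SOD1 with the ALS-linked G93A change, and Plekhg5-/- SOD1-G93A, which combined both. The transgenic line is the slowly progressing "low copy" model, and no change of the mouse Sod1 gene is labelled in any of the 4 genotypes. The labels name no cell type for the loss of Plekhg5.

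Superoxide dismutases turn superoxide into hydrogen peroxide and oxygen. Sod1 is the cytosolic copper/zinc enzyme, Sod2 the manganese enzyme of the mitochondrial matrix, and Sod3 the secreted copper/zinc enzyme of the extracellular space. Ccs delivers copper to newly made Sod1 and helps to form its internal disulfide bond. Mutations in human SOD1 cause familial ALS, and mice that express the mutated protein lose motoneurons while astrocytes and microglia become reactive.

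The G93A change lies in the coding sequence that mouse and human share in large part. In the mouse gene, the affected glycine is encoded by codon 94 with the initiator methionine counted, or residue 93 without it, in exon 4 of the 5 coding exons of Sod1. The codon is GGT, and it is shown in capitals between the 12 bases on either side (GRCm38, chr16:90225173-90225199, plus strand), to mark where the transgene carries alanine.
Sod1 coding sequence around glycine: gctggaaaggacGGTgtggccaatgtg
Sod1 spans chr16:90220762-90226333 on the plus strand, Sod2 chr17:13007839-13018119 on the plus strand, Sod3 chr5:52363804-52369738 on the plus strand and Ccs chr19:4825366-4839356 on the minus strand, all in the GRCm38.p6 annotation used for counting.

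RefSeq start regions on GRCm38.p6 were at hand for Sod1 and Sod2, and are shown because these genes had the highest levels among the mouse members and ran in opposite directions over the libraries. Each window holds 250 bases before and 50 after the start. Capitals mark matches to 4 motifs, searched on both strands.
Sod1, chr16:90220512-90220811, plus strand: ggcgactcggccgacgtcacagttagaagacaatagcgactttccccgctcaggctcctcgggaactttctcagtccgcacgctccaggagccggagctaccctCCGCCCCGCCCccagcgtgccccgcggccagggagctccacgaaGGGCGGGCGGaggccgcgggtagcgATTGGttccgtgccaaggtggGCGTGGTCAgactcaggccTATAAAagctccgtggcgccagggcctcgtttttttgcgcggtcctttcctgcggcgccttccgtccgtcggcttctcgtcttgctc
Sod2, chr17:13007589-13007888, plus strand: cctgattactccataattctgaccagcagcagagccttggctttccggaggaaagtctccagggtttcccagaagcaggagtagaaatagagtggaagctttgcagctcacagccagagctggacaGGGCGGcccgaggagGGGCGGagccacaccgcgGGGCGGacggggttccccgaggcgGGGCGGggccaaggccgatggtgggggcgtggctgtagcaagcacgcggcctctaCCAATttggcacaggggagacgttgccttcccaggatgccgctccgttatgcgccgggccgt
The Sod1 window held 1 TATA box core, TATAAA, which was found in 13.6% of 32851 windows of the same length. It held 4 GC box cores, GGGCGG, that overlap as pairs, and the Sod2 window also held 4 of them. This core was found in 35.7% of all windows. Each window held 1 CCAAT box, as 37.4% of all windows did at least once. The Sod1 window held 1 antioxidant response element core, TGACNNNGC, which was found in 12.4% of all windows. The Sod2 window held no TATA box core and no antioxidant response element core. A match describes the letters of the window and not the binding of a factor.

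The libraries held 30415643 to 38743628 counts, with a median of 32714352. Plekhg5 was at 22.9 ± 3.08 CPM (normalised counts, scaled to library size with TMM; SD, n = 3) in Plekhg5+/+ and 3.99 ± 0.712 CPM in Plekhg5-/- mice, and at 22.4 ± 2.19 and 4.26 ± 0.413 CPM in the corresponding transgenic mice, in the order of the labels. All marker genes of spinal cord neurons, motoneurons, astrocytes, microglia and oligodendrocytes were detected. Transcripts of the Y chromosome were found in 3, 2, 2 and 1 of 3 libraries in the order of genotypes given above. 3 libraries stood apart by their oligodendrocyte transcripts, namely Plekhg5+/+ #1, Plekhg5-/- #1 and Plekhg5+/+ SOD1-G93A #3. The summed level of 8 oligodendrocyte markers was 27679 to 31559 CPM in them and 22232 to 25294 CPM in the other 9 libraries. In tissue RNA, fewer cells of a type and less RNA per cell cannot be told apart.

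First, the levels of the members were compared per kilobase of exon (RPKM), which allows genes of different length to be set side by side. Sod1 was by far the most abundant mouse member, with 248.8 ± 22.9 RPKM over all 12 libraries (SD), a level exceeded by less than 1% of the genes tested (percentile 99.35). Sod2 had 42.1 ± 2.27 RPKM (percentile 92.5), Ccs 14.2 ± 1.35 RPKM (percentile 77.0) and Sod3 7.63 ± 1.03 RPKM (percentile 63.3). The Sod1 level was thus 5.90 times that of Sod2, 17.5 times that of Ccs and 32.6 times that of Sod3. The ranges of the 4 genes did not overlap, with 225.8 to 292.8 RPKM for Sod1, 37.9 to 44.9 for Sod2, 11.7 to 16.3 for Ccs and 6.34 to 9.16 for Sod3. This order was the same in each genotype.

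**Figure D1:**
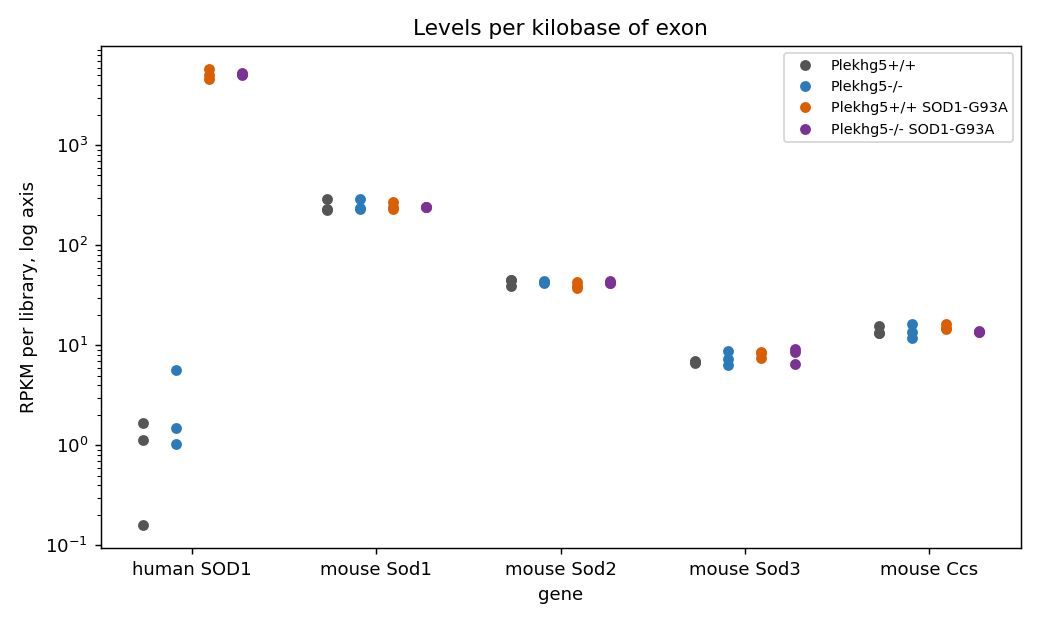
Levels of the 5 members in RPKM (log axis) in each library, with 1 column of 3 points per genotype. Human SOD1 in transgenic mice lies above each mouse member, and the mouse members keep the order Sod1, Sod2, Ccs, Sod3 in all genotypes.

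Human SOD1 transcripts outnumbered all mouse dismutases in transgenic mice. The transgene had 4421, 4919 and 5638 CPM in the 3 Plekhg5+/+ SOD1-G93A libraries and 5002, 4903 and 5098 CPM in the 3 Plekhg5-/- SOD1-G93A libraries. These values amount to 0.441% to 0.576% of all counts of a library. Libraries without the transgene listed 1.09, 1.64 and 0.153 CPM in Plekhg5+/+ and 5.47, 0.994 and 1.45 CPM in Plekhg5-/- mice.

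The non-transgenic values come from 5 to 187 counts per library and equal 0.00306% to 0.109% of the transgenic mean. Relative to the mouse Sod1 count of the same library they make up 0.106% to 2.93%. Their source was not tested. Plekhg5-/- #1 had the highest value of the 6, with 187 counts. Its share of the library was 0.000542% (exact 95% interval 0.000467% to 0.000626%, which covers counting error only).

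The lowest transgenic library lay far above the highest non-transgenic one. The log2 fold change of human SOD1 was 12.34 ± 0.691 (SE) with Plekhg5 intact (adjusted p = 0.000223, edgeR) and 10.87 ± 0.637 without Plekhg5 (adjusted p = 0.000343). The reference of these fold changes is the 5 to 187 counts of the non-transgenic libraries. The first was 12.92 without Plekhg5+/+ #2, and the second was 11.99 without Plekhg5-/- #1, the library with 187 counts. For the same low counts, Plekhg5 loss without the transgene gave a log2 difference of 1.47 (95% interval -0.12 to 3.06, adjusted p = 0.945), which was 0.34 without Plekhg5-/- #1. The interaction was -1.46 (interval -3.31 to 0.38, adjusted p = 0.601), and -0.33 without that library. Human SOD1 was the only member that passed the threshold, where 2.47% of all genes tested did so with Plekhg5 intact and 0.00496% without Plekhg5. The latter share is 1 gene, which is human SOD1 itself. Only transgenic mice hold this gene, so that its call was fixed by the genotype and serves as a check of the labels.

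The loss of Plekhg5 left the transgene level within the spread of the mice. The mean was 4993 ± 612 CPM in Plekhg5+/+ SOD1-G93A and 5001 ± 97.1 CPM in Plekhg5-/- SOD1-G93A mice (SD, n = 3), and the ranges overlapped. In the fit of all 4 genotypes the log2 difference was 0.0024 with a 95% interval of -0.90 to 0.91, a fit in which the low counts of the other 2 genotypes enter the estimate of spread. In the fit of the 2 transgenic genotypes alone, the interval ran from -12.9% to 14.7%. An exact permutation test gave p = 0.9, where 3 against 3 mice cannot go below 0.1.

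Human and mouse SOD1 could also be compared within a library. Per kilobase, human SOD1 was 19.7, 21.1 and 21.3 times mouse Sod1 in Plekhg5+/+ SOD1-G93A and 21.2, 20.8 and 21.6 times in Plekhg5-/- SOD1-G93A mice. The ratio was 20.7 ± 0.912 and 21.2 ± 0.405, respectively (two-sided exact permutation test, p = 0.5). Human SOD1 made up 94.5% ± 0.293 and 94.6% ± 0.101 of the dismutase transcripts per kilobase in these genotypes. Within the mouse dismutases, Sod1 held 82.8% to 83.7%, Sod2 13.5% to 14.6% and Sod3 2.29% to 2.76% of the transcripts, as means of the 4 genotypes.

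Mouse Sod1 transcripts were compared to see whether transgene load or Plekhg5 loss goes along with a different level of the endogenous gene, whose protein was not measured in these files. Sod1 had 183.3, 146.8 and 143.8 CPM in Plekhg5+/+, 186.5, 152.1 and 146.8 CPM in Plekhg5-/-, 148.3, 153.6 and 174.3 CPM in Plekhg5+/+ SOD1-G93A and 155.7, 155.2 and 155.3 CPM in Plekhg5-/- SOD1-G93A mice. The 4 ranges overlapped, with 1 library of each of the first 3 genotypes above the rest. No comparison passed the threshold. No mouse member separated completely between Plekhg5-/- and Plekhg5+/+ mice, where 8.74% of all genes did, or between Plekhg5-/- SOD1-G93A and Plekhg5-/- mice, where 12.5% did.

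Without the transgene, the loss of Plekhg5 gave a change of 2.44% in Sod1 with a 95% interval of -12.7% to 20.2% (adjusted p = 0.997), against 0.0298% of all genes that passed this test. With the transgene, it gave -2.08% with an interval of -16.6% to 14.9% (adjusted p = 0.939), where 0.0347% of all genes passed. The transgene gave 0.470% with Plekhg5 intact, with an interval of -14.4% to 17.9% (adjusted p = 0.983). Without Plekhg5 it gave -3.96% with an interval of -18.2% to 12.7% (adjusted p = 0.963). These intervals bound the differences that 3 mice per genotype can leave unseen. They do not cover reads of human SOD1 that may have been counted on mouse Sod1 in transgenic mice, which was not tested.

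Sod2, the mitochondrial enzyme, had 150.4, 171.7 and 171.2 CPM in Plekhg5+/+, 159.1, 163.6 and 170.1 CPM in Plekhg5-/-, 150.9, 163.7 and 144.8 CPM in Plekhg5+/+ SOD1-G93A and 167.2, 160.1 and 161.2 CPM in Plekhg5-/- SOD1-G93A mice. The genotypes overlapped, and Plekhg5+/+ SOD1-G93A had the lowest mean. The difference from Plekhg5+/+ was -6.86% with an interval of -15.7% to 2.92% (adjusted p = 0.456). The other comparisons of Sod2 gave adjusted p-values of 0.685 to 1.00.

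Sod3, the extracellular enzyme, was the mouse dismutase with the widest difference between genotypes. It had 14.1, 13.5 and 13.9 CPM in Plekhg5+/+, 14.9, 18.1 and 12.97 CPM in Plekhg5-/-, 17.4, 15.2 and 17.8 CPM in Plekhg5+/+ SOD1-G93A and 13.4, 18.7 and 17.4 CPM in Plekhg5-/- SOD1-G93A mice. The 3 Plekhg5+/+ SOD1-G93A libraries lay above the 3 Plekhg5+/+ libraries, a separation found in 20.6% of all genes tested in this comparison. The fold change was 1.21 with a 95% interval of 0.989 to 1.48, and it did not pass the threshold (log2 0.28 ± 0.135 SE, adjusted p = 0.306, edgeR fit over all genes). In the fit of these 2 genotypes alone the interval was 1.04 to 1.39 and the adjusted p 0.203. Without Plekhg5 the genotypes overlapped, with a log2 difference of 0.11 and an interval of -0.18 to 0.40 for the transgene (adjusted p = 0.953). The interaction of both effects was -0.17 on the log2 scale (interval -0.58 to 0.24, adjusted p = 0.766), where 0 of all 20155 genes tested passed (0%), so that a difference between them was not shown. A further edgeR fit took the presence of Y chromosome transcripts as a covariate. In it the transgene gave a log2 difference of 0.22 with Plekhg5 (adjusted p = 0.393) and 0.036 without Plekhg5. Plekhg5 loss gave -0.11 with the transgene, in place of -0.025, and 0.067 without it, in place of 0.14.

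Sod3 was set beside transcripts of meningeal fibroblasts. In the order of the Sod3 values above, the summed level of 8 fibroblast markers was 799.6, 947.1 and 821.6 CPM in Plekhg5+/+, 730.4, 981.7 and 726.7 CPM in Plekhg5-/-, 817.3, 679.99 and 1155 CPM in Plekhg5+/+ SOD1-G93A and 824.9, 1403 and 1188 CPM in Plekhg5-/- SOD1-G93A mice. The library with the highest sum also had the highest Sod3 in 3 genotypes, whereas in Plekhg5+/+ mice it had the lowest. Over the 12 libraries the correlation of Sod3 was r = 0.695 with the fibroblast sum, 0.519 with the sum of microglia and macrophage markers and 0.473 with that of astrocyte markers, as a description of values measured in the same libraries. The part of RNA of these cells in the Sod3 values was not tested.

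Ccs was compared as the copper source of Sod1. It had 17.0, 14.6 and 14.5 CPM in Plekhg5+/+, 17.8, 14.97 and 12.8 CPM in Plekhg5-/-, 16.03, 16.3 and 17.7 CPM in Plekhg5+/+ SOD1-G93A and 14.7, 15.2 and 14.7 CPM in Plekhg5-/- SOD1-G93A mice. In transgenic mice, all 3 libraries without Plekhg5 lay below all 3 with Plekhg5, a separation found in 19.5% of all genes tested in this comparison. The log2 difference was -0.17 with an interval of -0.40 to 0.07 (adjusted p = 0.652, edgeR fit over all genes), which does not pass the threshold. In the fit of the 2 transgenic genotypes alone the interval was -0.34 to -0.00030 and the adjusted p 0.412. Without the transgene the difference was -0.01 with an interval of -0.25 to 0.22.

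**Figure D2:**
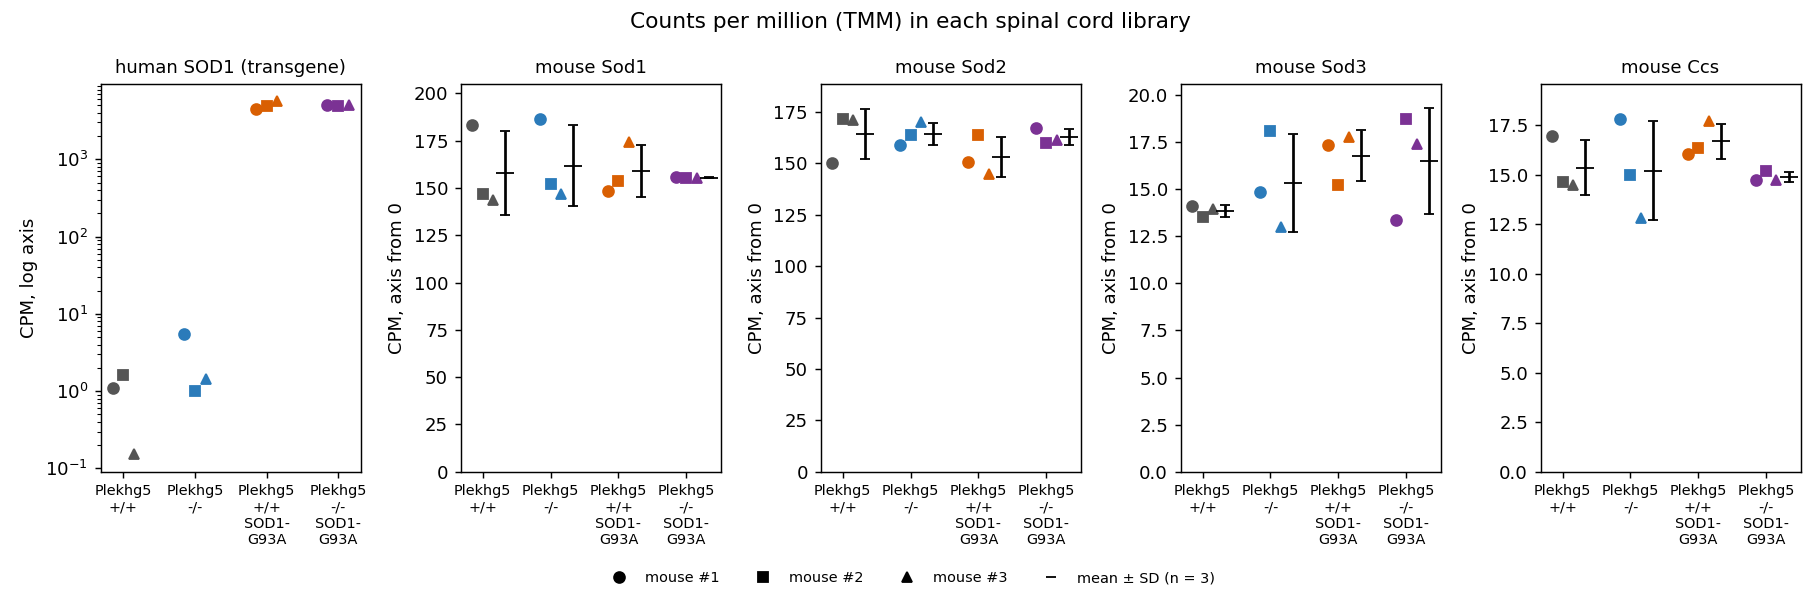
TMM-scaled CPM of each member in each of the 12 libraries (human SOD1 on a log axis, mouse genes on axes that start at 0), with the mean and SD of 3 mice as black bars for the mouse genes. Human SOD1 separates the genotypes with the transgene from those without it, whereas the mouse genes overlap between most genotypes.

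**Figure D3:**
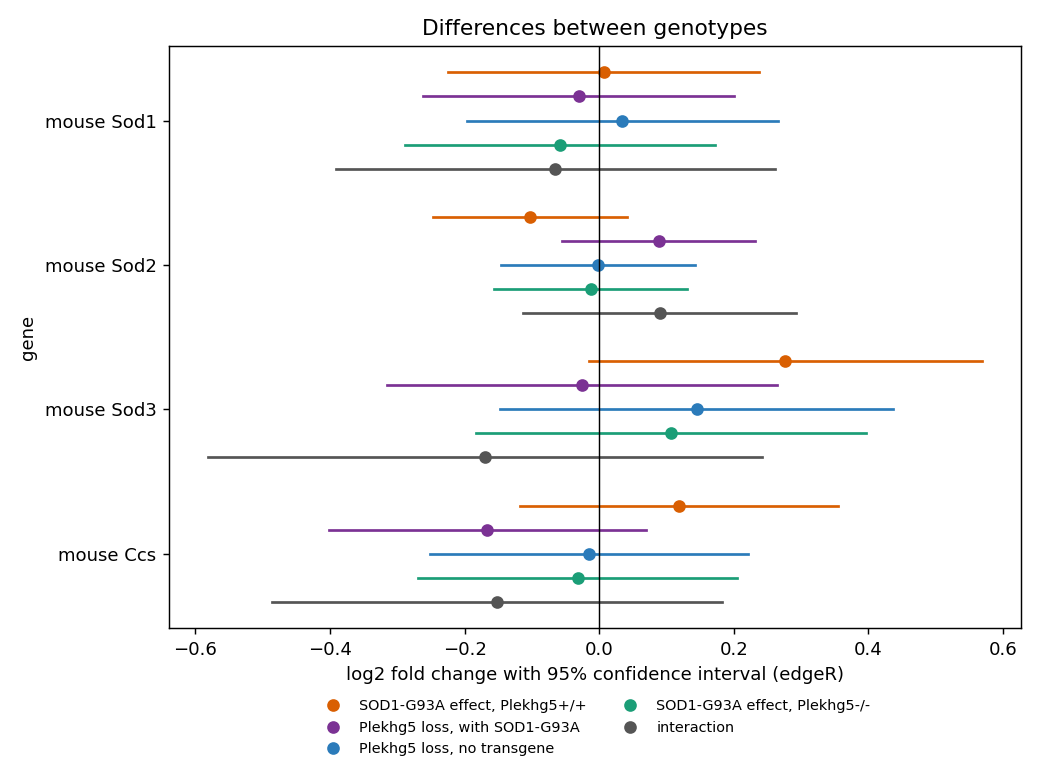
Log2 fold changes of the 4 mouse members in the 4 comparisons and the interaction, as points with 95% confidence intervals from edgeR. Each interval includes 0, and that of Sod3 with the transgene and intact Plekhg5 is the one that reaches least below it, at -0.02.

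Since human SOD1 also takes copper from Ccs, the chaperone was set against its clients per kilobase. There were 56.8 ± 2.63 Ccs transcripts per 1000 transcripts of Sod1 and human SOD1 in Plekhg5+/+ and 54.2 ± 3.34 in Plekhg5-/- mice. In Plekhg5+/+ SOD1-G93A mice there were 2.84 ± 0.202, and in Plekhg5-/- SOD1-G93A mice 2.52 ± 0.0893. The ratio was therefore 20.03-fold lower with the transgene when Plekhg5 was present and 21.5-fold lower when it was absent. Each of these comparisons gave p = 0.1 in a two-sided exact permutation test, the smallest that 3 against 3 mice allow, and 0.133 after adjustment over 4 comparisons. The transgene is part of the denominator, so that the full separation of the groups was fixed by the genotype and is not a finding on Ccs. The human transcripts in the denominator were near 0 in non-transgenic mice, whereas Ccs itself differed by a fold of 1.09 (0.922 to 1.28) and 0.978 (0.830 to 1.15) in these comparisons.

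With mouse Sod1 alone as the reference, a ratio that was added after the values had been seen, there were 54.0, 58.2 and 58.8 Ccs transcripts per 1000 in Plekhg5+/+ and 55.8, 57.5 and 50.9 in Plekhg5-/- mice. In Plekhg5+/+ SOD1-G93A mice there were 63.1, 62.1 and 59.3, above all other libraries. In Plekhg5-/- SOD1-G93A mice there were 55.3, 57.1 and 55.3. The means of 61.5 ± 1.99 in Plekhg5+/+ SOD1-G93A mice and 57.0 ± 2.61 in Plekhg5+/+ mice were compared with p = 0.1 (exact permutation test, adjusted 0.2), as was the former with 55.9 ± 1.05 in Plekhg5-/- SOD1-G93A mice.

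**Figure D4:**
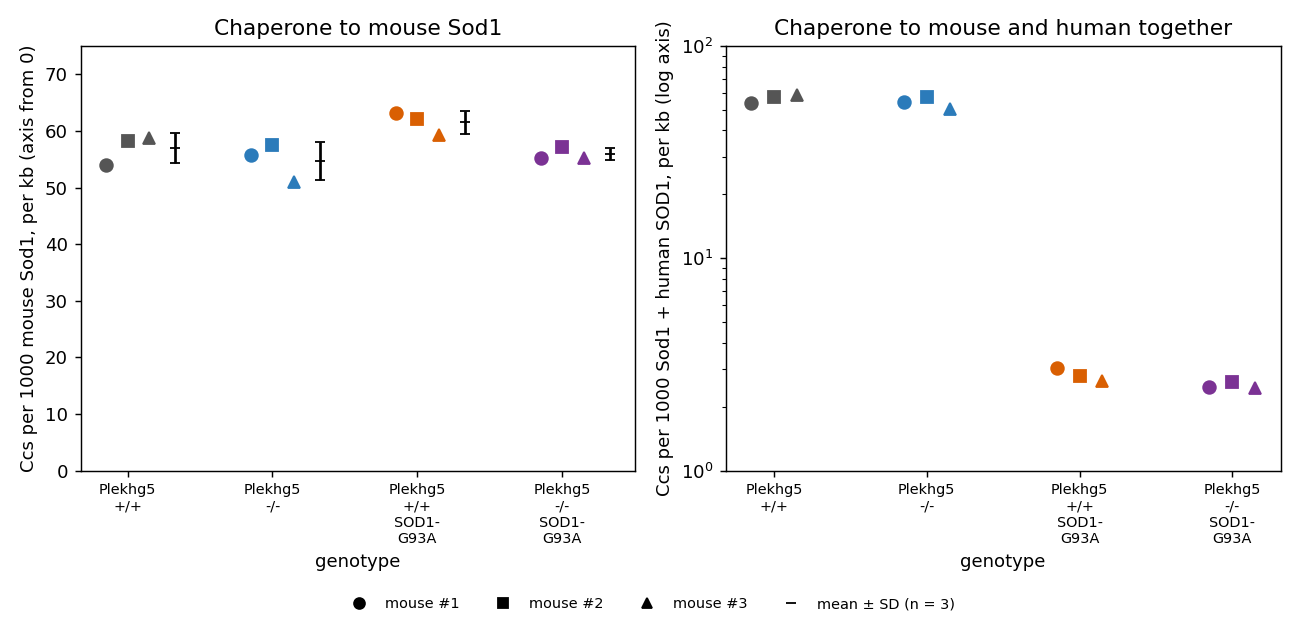
Ccs transcripts per 1000 transcripts of mouse Sod1 (left, axis from 0, with mean and SD of 3 mice) and of mouse Sod1 and human SOD1 together (right, log axis), per kilobase in each library. On the left the 3 Plekhg5+/+ SOD1-G93A libraries are the highest, at 59.3 to 63.1, and on the right all 6 transgenic libraries lie at 2.44 to 3.05.

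The spread between mice differed between the members. The SD within genotypes on the log2 scale was 0.148 for Sod1, 0.0765 for Sod2, 0.187 for Sod3 and 0.141 for Ccs. Sod1 and Ccs were high in the same libraries.

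The 3 libraries with the most oligodendrocyte transcripts had 174.3 to 186.5 CPM of Sod1, where the other 9 had 143.8 to 155.7 CPM. They also had 17.0 to 17.8 CPM of Ccs, where the other 9 had 12.8 to 16.3 CPM. Sod2 was at 144.8 to 159.1 CPM in them and at 150.9 to 171.7 CPM in the others, and thus overlapped. Over the 12 libraries, the correlation with the oligodendrocyte sum was r = 0.869 for Sod1, 0.728 for Ccs and -0.417 for Sod2. These libraries belong to 3 genotypes, and none is Plekhg5-/- SOD1-G93A. The part of oligodendrocyte RNA in these values was not tested.

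**Figure D5:**
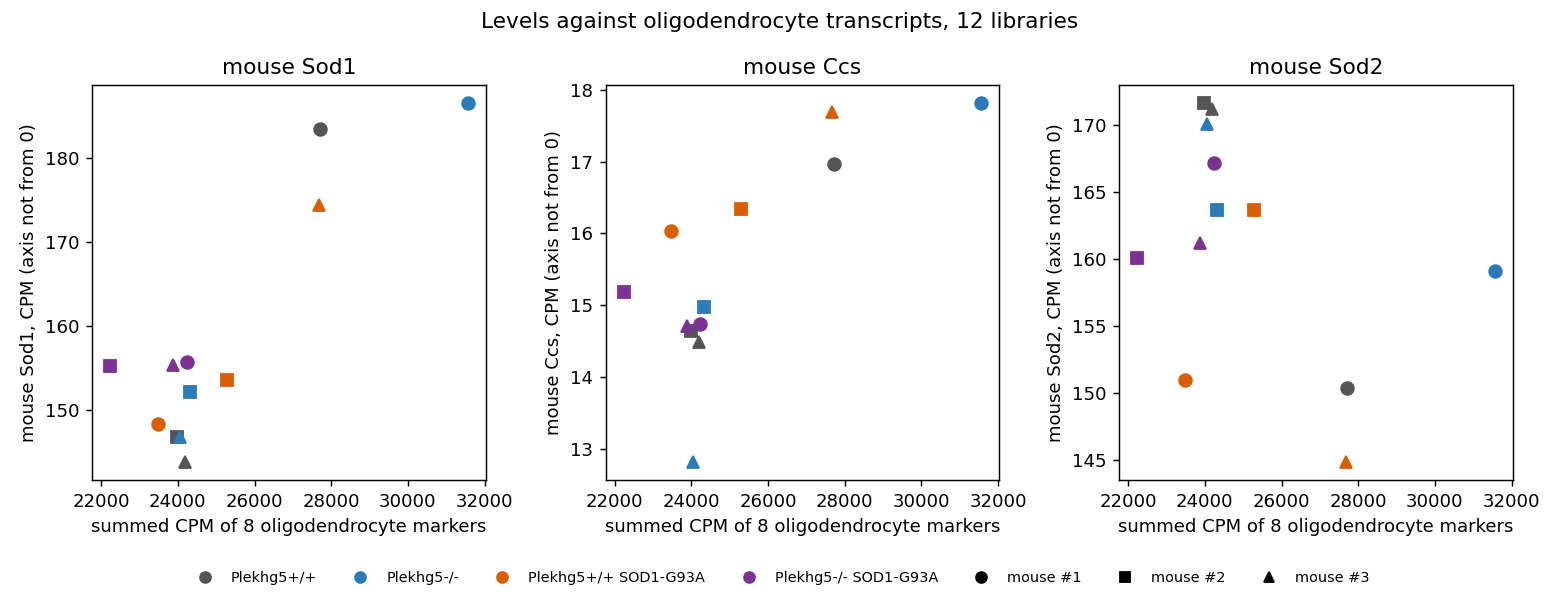
Mouse Sod1, Ccs and Sod2 (CPM, axes not from 0) against the summed CPM of 8 oligodendrocyte markers, with 1 point per library, genotypes by colour and mice by symbol. The 3 libraries at 27679 to 31559 CPM on the horizontal axis have the 3 highest values of Sod1 and of Ccs.

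When these 3 libraries were left out, an alternative chosen after the data had been seen, no mouse member passed the threshold in any comparison either. The Sod3 difference between Plekhg5+/+ SOD1-G93A and Plekhg5+/+ mice was then 0.24 on the log2 scale (adjusted p = 0.497), and that of Ccs between the 2 transgenic genotypes -0.12 (adjusted p = 0.597). With the oligodendrocyte sum as a covariate the latter was -0.05 (adjusted p = 0.884).

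The members also varied with each other. Over the 12 libraries, Sod1 and Ccs correlated with r = 0.796, Sod1 and Sod2 with -0.648, and Ccs and Sod2 with -0.762. Over the 6 transgenic libraries, human SOD1 and mouse Sod1 correlated with r = 0.932, with the highest value of both in Plekhg5+/+ SOD1-G93A #3. These values share library composition and depth, and they are given as a description. By correlation with Sod1, Ccs ranked 1439 among 16608 genes, and by correlation with human SOD1, mouse Sod1 ranked 102.

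By correlation of log2 CPM among 16608 genes, those most like Sod1 over the 12 libraries were Zfp622 (r = 0.979), the autophagy gene Gabarapl1 (0.976) and the pseudogene Rpl38-ps1 (0.975), whose reads may be shared with its parent gene. Those most like Ccs were Selenop (0.959), which encodes a selenium carrier, Aldoc (0.955), a glycolytic enzyme rich in astrocytes, and Gm7589 (0.9499). With the summed astrocyte markers, Ccs itself correlated with r = 0.295, and with the oligodendrocyte sum with 0.728. For Sod2 they were Prune2 (0.964), the RNA polymerase III subunit Polr3a (0.961) and the tyrosine phosphatase Ptpn3 (0.957). For Sod3 they were C1qtnf2 (0.904), the matrix metalloproteinase Mmp2 (0.883) and Tpbg (0.874). Over the 6 transgenic libraries, human SOD1 was most like Nkain4 (0.991), the G-protein subunit Gnai1 (0.989) and Spout1 (0.987), a likeness that rests on few points.

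The enzymes and carriers around the dismutases were read from 7 lists. Of 19 genes for copper transport and delivery, 0 passed the threshold in any comparison, where 0% to 2.47% of all genes tested did so. The most abundant genes of this list are the metallothioneins Mt2 and Mt3, which bind copper and zinc. Mt3 had 158.8, 124.6 and 125.2 CPM in Plekhg5+/+ and 173.8, 158.1 and 177.4 CPM in Plekhg5+/+ SOD1-G93A mice (log2 difference 0.32, adjusted p = 0.192). Mt2 was at 130.4 ± 23.9 and 195.9 ± 56.6 CPM in these genotypes (adjusted p = 0.403).

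Mitochondrial import factors of the intermembrane space, 4 in number, had 0 changes in any comparison, and so had 12 regulators of dismutase genes and activity. The share of all genes tested that passed was 0% to 2.47%, depending on the comparison. The most abundant genes of these lists were Timm10 and Timm9, small chaperones of the intermembrane space, the mitochondrial deacetylase Sirt3, which acts on Sod2, and Keap1, the repressor of Nrf2. Sirt3 was at 47.5 ± 3.58 CPM in Plekhg5+/+ and 48.3 ± 3.51 CPM in Plekhg5+/+ SOD1-G93A mice, and Keap1 at 58.2 and 58.6 CPM on average.

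Of 12 tested copper enzymes other than dismutases, 1 passed the threshold between Plekhg5+/+ SOD1-G93A and Plekhg5+/+ mice, where 2.47% of all genes tested did so, and it was higher with the transgene. It was the collagen-crosslinking oxidase Loxl2, which had 4.87, 4.55 and 3.41 CPM in Plekhg5+/+ and 12.8, 8.84 and 6.22 CPM in Plekhg5+/+ SOD1-G93A mice (log2 fold change 1.116 ± 0.225, adjusted p = 0.0257). The abundant copper enzymes Pam, which amidates neuropeptides, and Cp, the ferroxidase ceruloplasmin, did not pass (adjusted p = 0.996 and 0.677). Of 12 carriers of zinc and manganese, the zinc importer Slc39a1 was higher, with 28.7, 28.0 and 27.7 CPM against 52.7, 37.9 and 37.0 CPM (log2 fold change 0.60 ± 0.111, adjusted p = 0.0198), while the abundant Slc30a9 and Slc30a3 did not pass (adjusted p = 0.837 and 0.557).

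Of 20 genes that remove hydrogen peroxide, the product of the dismutases, 1 passed the threshold for the transgene with intact Plekhg5 beside 2.47% of all genes, and it was higher. Prdx6, a peroxiredoxin that also repairs oxidized phospholipids, had 319.5, 265.1 and 283.8 CPM in Plekhg5+/+ and 605.4, 369.4 and 427.5 CPM in Plekhg5+/+ SOD1-G93A mice (log2 fold change 0.69 ± 0.160, adjusted p = 0.0458). In Plekhg5-/- SOD1-G93A mice it had 323.2, 322.7 and 331.6 CPM. The abundant Gpx4 and Prdx5 did not pass (adjusted p = 0.816 and 0.900). The summed level of 8 astrocyte markers was 5285 to 5409 CPM in Plekhg5+/+ mice. It was 9967, 6920 and 6533 CPM in Plekhg5+/+ SOD1-G93A mice, in the order of the Prdx6 values above, and 2 of the 8 were higher by the test. The sum was highest in the library with the highest Prdx6, whereas the other libraries of this genotype ran in the opposite order. In Plekhg5-/- SOD1-G93A mice it was 6364 to 6596 CPM. The part of astrocyte RNA in the Prdx6 values was not tested.

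Genes for the production of superoxide, the substrate of the dismutases, formed the list with the most changes, where 3 of 9 tested were higher in Plekhg5+/+ SOD1-G93A than in Plekhg5+/+ mice and 0 lower, beside 2.47% of all genes that passed in either direction. Their log2 fold changes had a median of 0.65 over the 9 genes, beside -0.10 to 0.10 for the medians of the other 6 lists and -0.00099 for all genes tested, and another 4 genes of the list had too few counts to be tested. The membrane subunits of the phagocyte oxidase were among them. Cybb had 2.78, 2.55 and 3.61 CPM in Plekhg5+/+ and 27.9, 8.45 and 7.89 CPM in Plekhg5+/+ SOD1-G93A mice (log2 fold change 2.31 ± 0.526, adjusted p = 0.0493). Cyba had 5.51, 5.19 and 5.21 against 18.9, 10.3 and 12.7 CPM (1.40 ± 0.187, adjusted p = 0.0124).

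Rac2, a small GTPase that takes part in activating this oxidase, was higher too, with a log2 fold change of 1.37 ± 0.319 (adjusted p = 0.0466). Ncf1, a cytosolic subunit, did not pass (log2 0.64, adjusted p = 0.121). In Plekhg5-/- SOD1-G93A mice Cyba had 8.57, 7.71 and 6.86 CPM and Cybb 11.7, 7.29 and 4.58 CPM. Microglia and macrophage markers were higher in the same comparison in 9 of 10 genes, with a summed level of 451 to 524 CPM in Plekhg5+/+ and 843 to 1536 CPM in Plekhg5+/+ SOD1-G93A mice. Their part in the oxidase genes was not tested.

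The list calls varied with the fit. Of the 25 alternative fits, Cyba and Slc39a1 kept their call in 22, Loxl2 in 20 and Prdx6, Cybb and Rac2 in 12 each. All 6 lost it without Plekhg5+/+ #1, without Plekhg5+/+ #2 and with only the 2 genotypes in the fit, and all 6 kept their direction. In these 3 fits the comparison as a whole had 4, 2 and 3 calls, against 498, while the fold changes stayed of like size, for Cyba at 1.43, 1.38 and 1.38 on the log2 scale. Without Plekhg5+/+ SOD1-G93A #1, the library with the highest values of these genes, Loxl2, Prdx6, Cybb and Rac2 also lost their call. With single libraries left out, the log2 fold change ranged from 1.45 to 2.61 for Cybb and from 0.96 to 1.61 for Rac2. It ranged from 0.46 to 0.82 for Prdx6 and from 0.81 to 1.34 for Loxl2. In the main fit, 0 genes of the 7 lists passed the threshold for Plekhg5 loss, the transgene without Plekhg5 and the interaction. List genes were not followed in the alternative fits of these comparisons. Of all genes tested, only 0% to 0.0347% passed in the main fit, so that 0 calls do not set the lists apart. For Plekhg5 loss with the transgene, the log2 differences of the 6 genes ran from -0.91 (Cybb) to -0.30 (Rac2). The intervals of Cybb and Rac2 included 0, whereas that of Cyba was -1.25 to -0.46 (adjusted p = 0.314, edgeR). The 6 genes were named for their high values in Plekhg5+/+ SOD1-G93A mice, which also enter this difference.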

How the data were processed

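Spinal cord RNA of 12 mice was sequenced. The authors demultiplexed reads with bcl2fastq 2.20.0.422, trimmed them with Cutadapt 2.4, mapped them with STAR 2.7.2b to GRCm38.p6 together with human SOD1 cDNA and counted them by strand with featureCounts 1.6.4. Reads with several matches were counted as fractions, so that the deposited values are expected counts (estimated counts), without normalization. Of the rows, 17.3% to 18.1% were not whole per library. Among the members this held for Sod2 in 12 libraries, Sod1 in 10 and human SOD1 in 5, and for Sod3 and Ccs in 0.

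Counts were rounded and tested in R 4.3.3 with edgeR 4.0.16 (TMM, filterByExpr, robust quasi-likelihood fit of 4 genotypes, no covariate). P-values were adjusted after Benjamini-Hochberg over 20155 genes, with a threshold of 0.05. RPKM values used the exon lengths of the deposited table. Ratios were tested by two-sided exact permutation. The script was tested on simulated data. DESeq2 1.42.0 and other alternatives are described in the closing section. The study's methods used DESeq2.

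Members, gene lists and tests were chosen with earlier results of these data known. 1 gene of the superoxide production list is not reported here and was left out of its counts and median. The genes named are the members, Plekhg5, list genes with an adjusted p under 0.05, the 2 most abundant genes per list, and the 3 genes most like each member. Within genotypes, no library was a copy of another, since chi-square per degree of freedom was 5.42 to 25.9 between mice of one genotype. The replicate numbers name different mice, and correlations of deviations between mice of the same number ran from -0.109 to 0.318, so that they were not taken as pairs. All 12 columns of counts were matched to a mouse by their names.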

Additional observations from a re-analysis of the deposited data

Results flagged for a closer look

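The values of Ccs in transgenic mice lay on opposite sides of the mean of the corresponding non-transgenic mice with and without Plekhg5. Each of the 3 Plekhg5+/+ SOD1-G93A libraries (16.03 to 17.7 CPM) lay above the Plekhg5+/+ mean of 15.4 CPM, and each of the 3 Plekhg5-/- SOD1-G93A libraries (14.7 to 15.18 CPM) below the Plekhg5-/- mean of 15.20 CPM. The interaction was -0.15 on the log2 scale, with a 95% interval of -0.49 to 0.18, and it did not pass the threshold (adjusted p = 0.740, edgeR fit over all genes). With oligodendrocyte transcripts as a covariate it was 0.037. The direction without Plekhg5 turned on 1 library: without Plekhg5-/- #1, which had 17.8 CPM, the transgene effect on Ccs in these mice was 0.091 in place of -0.032, and the interaction was -0.015.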

How the results depend on the processing

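No mouse member passed the threshold in any comparison under any of the alternatives run, and human SOD1 passed in both transgene comparisons under each alternative that tested it. With the human gene left out of the totals, or with at least 10 counts required in every library, human SOD1 is itself not tested, and the transgene without Plekhg5 then had 0 calls. The log2 fold change of the transgene shrank to 0.33 under the fold change prior of DESeq2, by the construction of that prior.

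The numbers of genes called depend on the fit, and are given in the order transgene with Plekhg5, Plekhg5 loss with the transgene, Plekhg5 loss without it, transgene without Plekhg5 and interaction. The main values were 498, 7, 6, 1 and 0. DESeq2 called 1159, 72, 34, 45 and 95 genes, and with its fold change prior 1190, 114, 32, 41 and 112. Without a filter the interaction had 1 call. With only 2 genotypes in the fit there were 3 calls for the first, 11 for the second and 20 for the fourth comparison. With the 3 libraries of most oligodendrocyte transcripts left out, the first had 246 calls and the interaction 1, and with these transcripts as a covariate the first had 1320 and the third 11. At an unadjusted p under 0.05 in the main edgeR fit, the comparisons had 3659, 1741, 1073, 1084 and 1824 of 20155 genes, in the same order. Leaving out each library in turn gave 2 to 771, 4 to 8, 5 to 59, 1 to 9 and 0 to 40 calls. The lowest values of the first comparison came without Plekhg5+/+ #2 (2) and Plekhg5+/+ #1 (4), and the 59 and 40 calls without Plekhg5+/+ #3. The cause was not tested.

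Some log2 differences changed sign. For Sod1 and the transgene with Plekhg5, the main value of 0.0068 became -0.0028 under DESeq2, -0.0023 with its prior, -0.0010 with its size factors, -0.0025 without a filter, -0.0038 with 2 genotypes and -0.016 with the oligodendrocyte covariate. For human SOD1 and Plekhg5 loss, the value became -0.012 with library totals, -0.0024 without a filter and -0.00048 with 2 genotypes, and its interaction, -1.46 in the main values, 0.0010 with the DESeq2 prior, which shrinks values toward 0. For Sod2 and Plekhg5 loss without the transgene it became 0.012 with library totals, 0.00090 with 10 counts required and 0.025 with the covariate. Without the 3 libraries, Plekhg5 loss with the transgene gave 0.041 for Sod1 and 0.017 for Sod3, the transgene without Plekhg5 gave 0.049 for Sod1 and 0.092 for Ccs, and the interaction of Sod1 was 0.00030. With the covariate, Sod1 had 0.10 for Plekhg5 loss with the transgene, -0.044 for the loss without it, 0.13 for the transgene without Plekhg5 and 0.15 for the interaction, and Ccs had 0.14 for the transgene without Plekhg5 and 0.037 for the interaction.

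With single libraries left out, Sod1 ranged from -0.068 to 0.13, -0.077 to 0.042, -0.078 to 0.16, -0.12 to 0.049 and -0.19 to 0.054 over the comparisons in the order above. For Plekhg5 loss with the transgene, human SOD1 ranged from -0.078 to 0.099 and Sod3 from -0.13 to 0.12. For Plekhg5 loss without it, Sod2 ranged from -0.062 to 0.030 and Ccs from -0.14 to 0.094. For the transgene without Plekhg5, Sod2 ranged from -0.043 to 0.013 and Ccs from -0.14 to 0.091. The log2 difference of the ratio of human to mouse SOD1 ranged from -0.00074 to 0.058, and that of Ccs to Sod1 for the transgene without Plekhg5 from -0.019 to 0.068.

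The replicate number was also used as a block. Deviations from the genotype mean were correlated with those of the libraries of other genotypes and averaged by replicate number. For 7 of 12 libraries the average was highest for their own number, as a hint from the data and not the design. With the block, human SOD1 differed by -0.0088 for Plekhg5 loss, the calls were 631 for SOD1-G93A with Plekhg5 intact and 8, 8, 1 and 0 for the other comparisons in the order above, and no call of a member changed, whereas Cybb no longer passed. With 3 mice per genotype, the 95% intervals of the mouse members between genotypes reached down to -24.3% (Ccs) and up to 48.3% (Sod3), so that differences within these bounds may go unseen.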
